A study of Mus musculus with 8 samples.

Results

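The genes for the subunits of AMP-activated protein kinase (AMPK) and for its upstream kinases were examined for ERRα occupancy in mouse skeletal muscle and liver. They are 10 of the 19188 genes named in any of 4 ERRα ChIP-seq peak lists. They were taken by gene name: *Prkaa1* and *Prkaa2* for the catalytic α subunits, *Prkab1* and *Prkab2* for the scaffold β subunits, *Prkag1*, *Prkag2* and *Prkag3* for the nucleotide-binding γ subunits, and *Stk11*, *Cab39* and *Camkk2* upstream. A peak was counted when the lists named it for a member and its centre lay at most 20 kb from the transcription start site (TSS), which gave 90 peaks. Muscle had 18 in WT and 28 in ERRα 3SA, and liver had 18 in WT and 26 in ERRα 3SA. Every member had such a peak in at least 1 list.

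The animals were male C57BL/6N mice, 2 to 3 months old, either WT or ERRα 3SA phospho-mutants, a line in which ERRα lacks phosphorylation in its amino-terminal domain. The muscle was gastrocnemius and soleus. Each ChIP-seq library came from pooled material, crosslinked muscle of 5 mice or crosslinked liver of 2 mice per genotype. According to the labels 3 ChIP samples were combined, whereas the paper's methods give a larger number. Muscle nuclei were isolated before crosslinking and liver was crosslinked directly, so tissue and preparation cannot be told apart. With 1 library per genotype and tissue there was no replicate check on any value, and no difference between genotypes or tissues was tested.

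AMPK is a heterotrimer that senses a low energy charge: AMP and ADP bind the γ subunit, and phosphorylation of the α subunit switches the kinase on. LKB1, encoded by *Stk11* and held active by the scaffold MO25α from *Cab39* together with STRAD, is the main upstream kinase, and CaMKK2 activates AMPK when calcium rises. In muscle AMPK is activated by contraction and in liver by fasting, and in both it favours fatty acid oxidation over synthesis. ERRα is an orphan nuclear receptor that binds an extended half-site, the ERR response element (ERRE), at genes of oxidative metabolism.

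For muscle, 25427 peaks were listed in WT and 50647 in ERRα 3SA, of which 12999 and 23571 lay within 20 kb of a TSS. For liver the numbers were 21813 and 29040, with 11216 and 16104 within 20 kb. Each peak carries a score from the peak caller, from 30 upwards, and scores were ranked only within a list. Ranks were divided by the list's length to give a top percentage, which is small for a strong peak. Tied peaks share the best rank of the tie, and the lowest score in muscle is a large tie reaching the end of the list. The sequencing depth behind the lists is unknown here. Of 10 genes abundant in skeletal muscle, 7, 10, 5 and 7 had a peak within 20 kb in WT muscle, ERRα 3SA muscle, WT liver and ERRα 3SA liver, and of 10 genes abundant in liver 3, 4, 4 and 7 did. The liver-defining genes *Alb*, *Cps1* and *Fgb* had none within 20 kb in any list, so these occupancy counts do not check the tissue labels.

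Occupancy in all 4 lists was found at 4 places within 20 kb of a member TSS, and a stronger *Prkag2* site beyond that limit was also present in each list. The sequences at 3 of these are printed here because their called intervals hold ERR half-sites in all 4 lists. The capitals mark either the full ERRE, TCAAGGTCA, or its core AAGGTCA where the full element is absent from the stretch. The bases come from RefSeq GRCm38.p6, whose coordinates match the mm10 intervals of the lists. The sequence at *Prkag2* intron 1 is chr5:25085077-25085185 on the plus strand. That at *Camkk2* intron 1 is chr5:122769366-122769474 on the plus strand. The *Prkag2* intron 3 site is chr5:24959077-24959193 on the plus strand.
Prkag2 intron 1: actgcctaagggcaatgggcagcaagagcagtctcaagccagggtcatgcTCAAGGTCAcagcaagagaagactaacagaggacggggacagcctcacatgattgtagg
Camkk2 intron 1: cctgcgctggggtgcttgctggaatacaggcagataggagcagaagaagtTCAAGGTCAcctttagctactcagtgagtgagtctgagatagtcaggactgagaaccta
Prkag2 intron 3: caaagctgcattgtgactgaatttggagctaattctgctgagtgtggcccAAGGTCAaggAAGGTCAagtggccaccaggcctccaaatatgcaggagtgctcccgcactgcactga
The first 2 hold the full element inside the called intervals of all 4 lists. The *Prkag2* intron 3 stretch holds the core in duplicate, with starts 10 bp apart on the same strand. This spacing within the central 300 bp of an interval was found in 0.115%, 0.0721%, 0.25% and 0.168% of the peaks within 20 kb of any TSS in WT muscle, ERRα 3SA muscle, WT liver and ERRα 3SA liver. The spacing was read from this site after seeing the data, so these shares are no test of the site. In ERRα 3SA liver its first core lay 153 bp from the centre, outside the central 300 bp. This intron 3 site lies beyond 20 kb of a TSS and is described beside the other *Prkag2* peaks without entering the counts.

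The AMPK genes were bound in both tissues and both genotypes, but the member set differed by list. In WT muscle 7 of 10 members had a peak (70%, 95% Wilson interval 39.7 to 89.2%), against 34.5% of the 21896 protein-coding genes of the reference. In ERRα 3SA muscle all 10 had a peak (interval 72.2 to 100%), against 47.9%. WT liver had 7 (interval 39.7 to 89.2%), against 29.9%, and ERRα 3SA liver had 9 (90%, interval 59.6 to 98.2%), against 37.7%. The share of members was above that of all protein-coding genes in each list. Measured against genes named in any list, of which 45.1%, 63.5%, 39.2% and 49.2% had a peak, the share was inside the members' interval in WT muscle and below it in the other 3 lists. These intervals cover counting error over 10 chosen genes only.

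**Figure D1:**
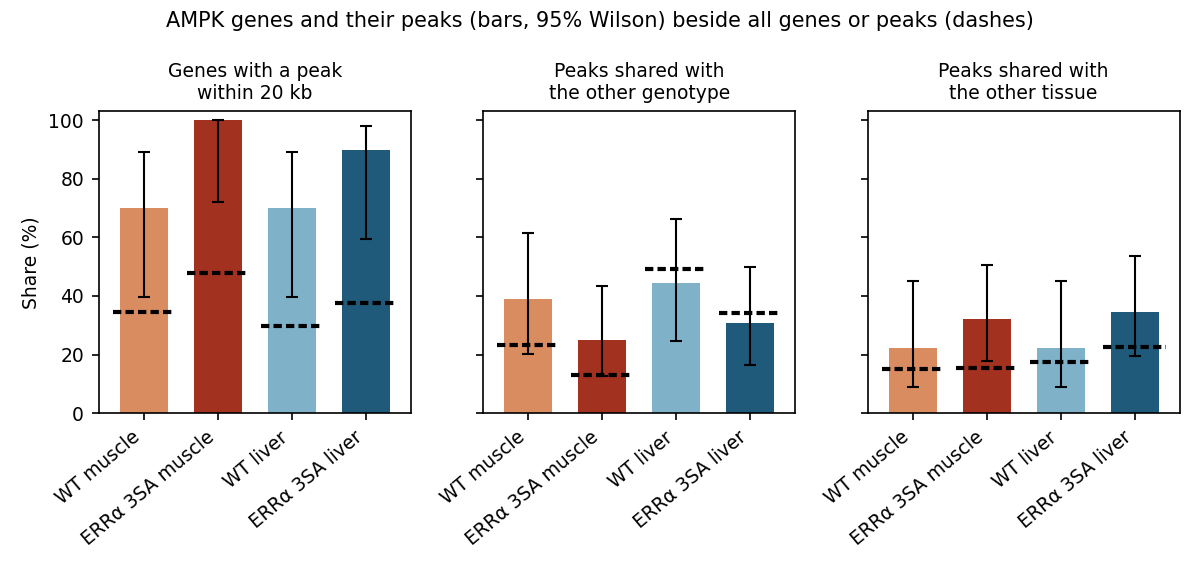
Bars show the share of AMPK genes with a peak within 20 kb (left), and of their peaks with a centre of the other genotype (middle) or of the other tissue (right) within 300 bp, in percent; error bars are 95% Wilson intervals and dashes give the share over all protein-coding genes or all peaks within 20 kb. The member bars of the left panel run from 70% to 100% and lie above their dashes, which run from 29.9% to 47.9%.

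Between genotypes, 7 members had a peak in both muscle lists, against 25.6% of protein-coding genes, and 6 in both liver lists, against 22.6%. *Prkaa2*, *Prkab1*, *Prkag2*, *Prkag3* and *Camkk2* had peaks in all 4 lists, 5 of 10 genes against 12.5% of all. Named in ERRα 3SA muscle but not in WT muscle were *Prkaa1*, *Prkab2* and *Cab39*, with best scores of 30, 42 and 36. Named in ERRα 3SA liver but not in WT liver were *Prkab2*, *Stk11* and *Cab39*, with best scores of 96, 55 and 49. *Prkag1* was the only member with a peak in WT liver and none in ERRα 3SA liver. The genes named in mutant muscle alone thus all scored under 50. Peaks in a single genotype were also common over all protein-coding genes. In muscle 34.5% had a peak in WT and 47.9% in ERRα 3SA, but 25.6% in both. In liver 29.9% had a peak in WT and 37.7% in ERRα 3SA, but 22.6% in both. Cutting the ERRα 3SA muscle list to the length of the WT list fell inside a tie of 9967 peaks of score 36. With the tie kept, 8 members and 19 of the 28 peaks remained, and with the tie dropped 7 members and 14 peaks did. *Prkaa1* and *Prkag1*, whose best score was 30, were lost either way. Within 5 kb of a TSS, 6 members had a peak in WT muscle and 6 in ERRα 3SA muscle.

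A stricter score left a few members in each list. With a score of at least 100, WT muscle kept 2 members, *Prkaa2* and *Prkag3*, against 2.87% of protein-coding genes. ERRα 3SA muscle kept 4, adding *Prkag2* and *Camkk2*, against 5.49%. WT liver kept 5 (*Prkaa2*, *Prkab1*, *Prkag2*, *Prkag3* and *Camkk2*), against 8.02%, and ERRα 3SA liver kept 4 of those without *Prkag3*, against 11.9%. *Prkaa1*, *Prkab2*, *Prkag1*, *Stk11* and *Cab39* reached this score in no list.

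**Figure D2:**
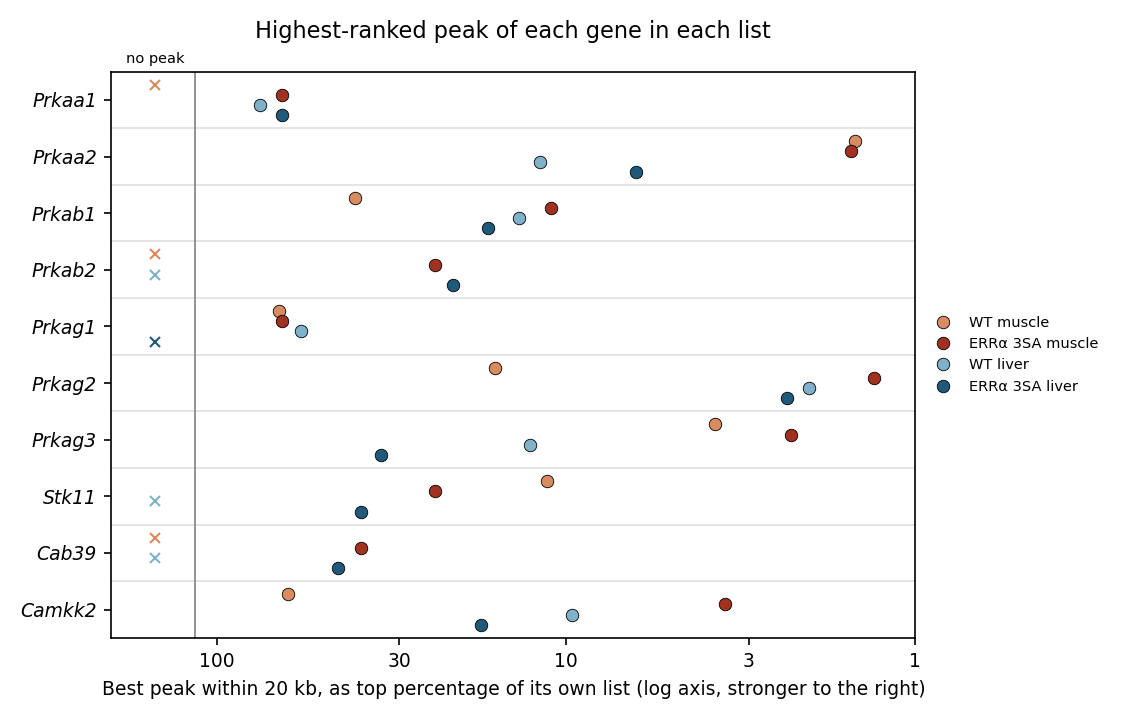
Each point is the highest-ranked peak within 20 kb of a gene, as the top percentage of its own list on a log axis with strong peaks to the right; crosses mark a list with no peak and colours mark the 4 lists. *Prkaa2* in muscle (1.49% and 1.53%) and *Prkag2* in ERRα 3SA muscle (1.31%) are farthest right, and *Prkaa1* and *Prkag1* stay to the left of 50%.

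Among the catalytic subunits the 2 paralogs differed sharply. *Prkaa2* encodes α2, the form that predominates in skeletal muscle, and it was occupied at the start of its first intron in every list. In WT muscle this interval (chr4:105108936-105109874) scored 244 and ranked 380, within the top 1.49% of the list and 493 bp inside the gene. The ERRα 3SA muscle interval (chr4:105109012-105110937) scored 249 and ranked 776, the top 1.53%, and at 1926 bp it was the widest member peak. It spanned the TSS and its centre lay 569 bp from the WT centre, so the intervals overlapped without counting as shared at 300 bp. In WT liver the interval (chr4:105108872-105109907) scored 135, the top 11.9%, and in ERRα 3SA liver (chr4:105108847-105109771) it scored 266, the top 6.32%. This first-intron place was therefore among the strongest in both muscle lists and less highly ranked in both liver lists. The GC content of these intervals was 58.9% to 62.9%. A core half-site lies inside all 4 intervals and is printed because it is the only core found in them. This core lay 130 bp from the centre in WT muscle but 699 bp in ERRα 3SA muscle, and 114 and 34 bp in WT and ERRα 3SA liver. It is shown from chr4:105109222-105109328 on the minus strand, with the core in capitals.
Prkaa2 intron 1: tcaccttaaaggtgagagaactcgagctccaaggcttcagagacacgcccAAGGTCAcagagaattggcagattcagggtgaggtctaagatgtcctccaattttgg
No full ERRE was found at this place.

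Farther inside *Prkaa2*, weak peaks near 19 kb from the TSS were named in ERRα 3SA muscle, WT liver and ERRα 3SA liver with scores of 38, 36 and 43. WT liver had a further one 5916 bp inside the gene, with a score of 33.

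*Prkaa1*, which encodes the broadly expressed α1 subunit, had 1 weak peak in each of 3 lists, all at different places. In ERRα 3SA muscle a peak of score 30 lay 6579 bp inside the gene. WT liver had a peak of score 33 at 11333 bp inside the gene, and ERRα 3SA liver one of score 37 at 5513 bp upstream. None had a partner in another list, and WT muscle had no peak. The scores were close to the lowest of each list.

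Of the β subunits, which hold the complex together and bind glycogen, only *Prkab1* had a recurrent site. Its intron 4 was occupied in all 4 lists at a median of 4951 bp inside the gene (chr5:116018735-116019938). The score was 34 in WT muscle and 57 in ERRα 3SA muscle, the top 62% and 11%. It was 119 in both WT and ERRα 3SA liver, the top 13.6% and 16.7%. AAGGTCA occurs at 3 positions in this stretch, with no full ERRE. The WT muscle peak was thus weak, and the other 3 ranked within the top 16.7% of their lists. The other 8 peaks of *Prkab1* were each found in 1 list, with scores of 32 to 55, among them a promoter peak of score 32 in ERRα 3SA liver whose centre lay 29 bp from the TSS.

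*Prkab2*, for the β2 subunit that is abundant in skeletal muscle, was named in the mutant lists only. In ERRα 3SA muscle its 1 peak lay in intron 7, 11469 bp inside the gene, with a score of 42 and the top 23.7%. In ERRα 3SA liver the stronger of its 2 peaks scored 96, the top 21.1%, and lay 2480 bp upstream at the transcription end of the neighbouring gene *Fmo5*. The second, in intron 5, scored 36. The nearest muscle centre to a liver peak was 4996 bp away, so the tissues did not share a site.

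*Prkag2* carried more of the peaks than any other member. It encodes γ2, which is prominent in heart and also made in muscle and liver, and 32 of the 90 member peaks were named for it, with 6, 9, 8 and 9 in WT muscle, ERRα 3SA muscle, WT liver and ERRα 3SA liver. Only 0.237%, 0.16%, 0.0411% and 0.0548% of protein-coding genes had as many. *Prkag2* is also the longest member at 244 kb, against 10.6 to 80.2 kb for the others, with 3 curated TSSs, and whether length bears on these counts was not tested.

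A pair of *Prkag2* sites within 20 kb recurred in all lists. In intron 3, at a median of 13938 bp downstream of the middle TSS (chr5:24980779-24982586), the score was 45 in WT muscle and 284 in ERRα 3SA muscle, with ranks of 5892 and 661. In liver it was 477 in WT and 517 in ERRα 3SA, with ranks of 438 and 677. It ranked lower in WT muscle than in the other 3 lists. No core AAGGTCA, and so no full ERRE, was found in its interval in any list. In intron 1, at 15524 bp from the most upstream TSS (chr5:25084694-25085493), the score was 30 in WT muscle and 49 in ERRα 3SA muscle, with ranks of 16894 and 7851. In liver it was 191 in WT and 458 in ERRα 3SA, with ranks of 1735 and 820. The intron 1 interval holds the first ERRE printed above, and in both tissues it ranked higher in the mutant list.

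The strongest site of any member lay in *Prkag2* intron 3 at a median of 36653 bp from the middle TSS (chr5:24958660-24959906), beyond the 20 kb limit. It scored 326 in WT muscle and 616 in ERRα 3SA muscle, the top 1.01% and 0.421%. In WT liver it scored 1437 and in ERRα 3SA liver 1884, the top 0.289% and 0.179%, with ranks of 63 and 52. It was the highest-scoring peak named for a member in each list. The duplicated core printed above lies in all 4 intervals, and a full ERRE on the minus strand at position 24959432 lies in the 2 liver intervals only, which extend farther. With this site counted, the best top percentage of *Prkag2* in WT muscle would be 1.01% in place of 16%.

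Other *Prkag2* sites were found in the liver lists but not in muscle. Close to the most upstream TSS, the liver lists shared a peak at a median of 1413 bp, with a score of 89 in both genotypes, and another at 3069 bp, with scores of 49 in WT and 168 in ERRα 3SA. A peak at 5921 bp upstream of the middle TSS was named in both mutant lists only, with scores of 30 in muscle and 101 in liver. Of all peaks named for *Prkag2*, 23 lay beyond 20 kb, of 36 for the 10 members. Their spread along the gene is seen in the map of *Prkag2*.

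**Figure D3:**
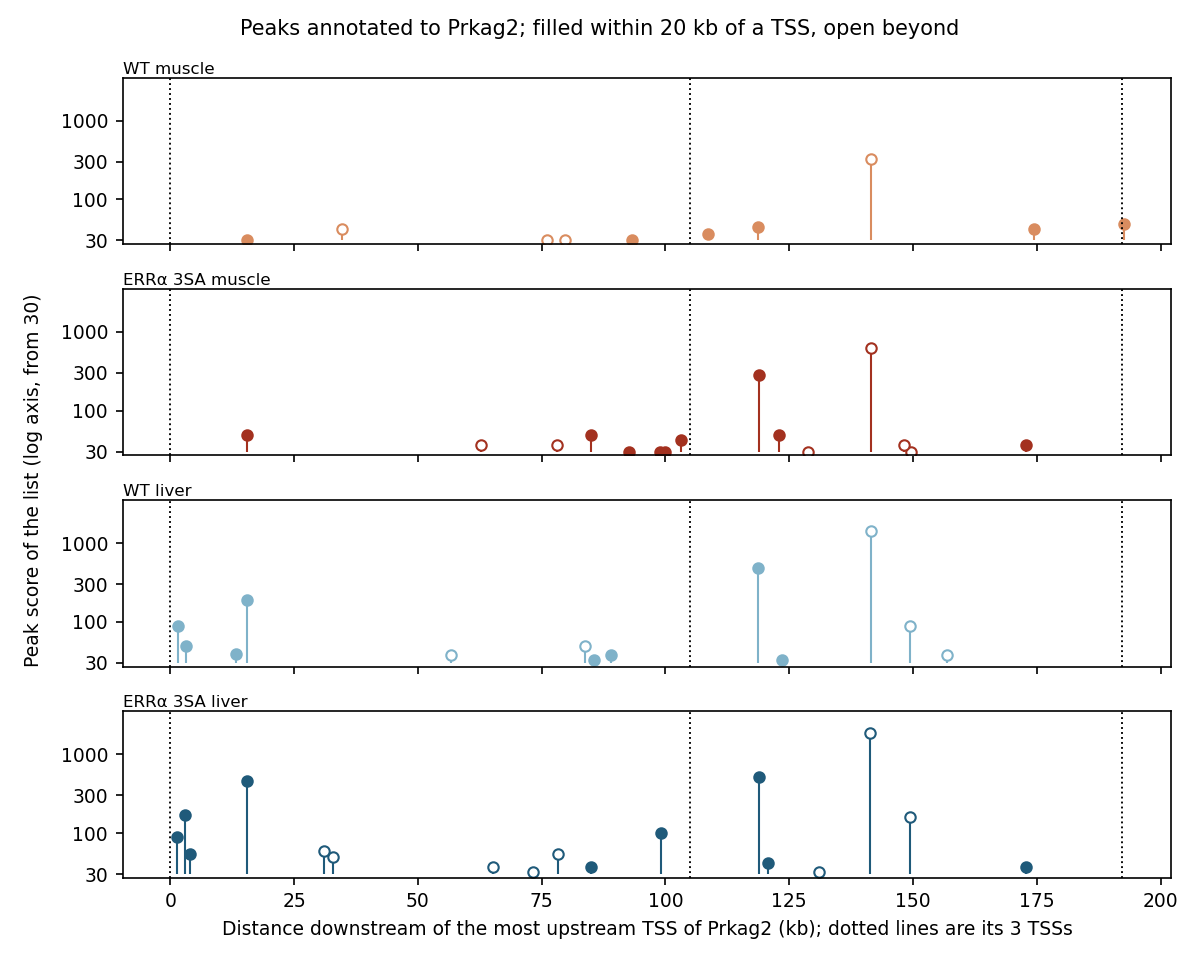
Peaks named for *Prkag2* in the 4 lists, by distance downstream of its most upstream TSS in kb; heights are list scores on a log axis from 30, filled points lie within 20 kb of a TSS, open points beyond, and dotted lines mark the 3 TSSs. The tallest peak of each panel is the open point in intron 3, with scores of 326, 616, 1437 and 1884 from top to bottom.

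*Prkag3* had its highest-scoring peaks at separate sites in muscle and liver. It encodes γ3, the γ isoform that is largely restricted to glycolytic skeletal muscle. In both muscle lists a peak lay over exon 4 at a median of 1458 bp inside the gene (chr1:74746864-74748028), with scores of 118 in WT and 181 in ERRα 3SA, the top 3.74% and 2.27%. In both liver lists the strongest peak lay upstream instead, at a median of 1882 bp before the TSS (chr1:74750532-74751100), with scores of 127 in WT and 62 in ERRα 3SA, the top 12.7% and 33.9%. Neither site had a partner in the other tissue, and the nearest centres were 3243 bp apart in WT and 3439 bp apart in ERRα 3SA. Both places held a core half-site and no full ERRE. The core lay 29 and 66 bp from the centres in WT and ERRα 3SA liver, but 313 and 414 bp from those in muscle. The stretches are printed to show the pair, the muscle one from chr1:74747807-74747913 on the minus strand and the liver one from chr1:74750766-74750872 on the plus strand, with cores in capitals.
Prkag3 muscle: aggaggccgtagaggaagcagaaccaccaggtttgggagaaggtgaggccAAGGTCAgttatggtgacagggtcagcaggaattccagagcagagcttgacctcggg
Prkag3 liver: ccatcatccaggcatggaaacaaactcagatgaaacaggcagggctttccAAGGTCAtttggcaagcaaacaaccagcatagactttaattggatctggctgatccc
A weaker site in the neighbouring gene *Cyp27a1*, at a median of 14126 bp, was named for *Prkag3* in WT muscle, ERRα 3SA muscle and ERRα 3SA liver with scores of 30, 30 and 55.

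*Prkag1*, for the widely expressed γ1 subunit, had only weak peaks, and all lay within the neighbouring gene *Kmt2d*. WT muscle had 1 peak of score 30 at 1869 bp upstream, ERRα 3SA muscle had 2 of score 30 at 9111 and 18296 bp, and WT liver had 1 of score 38 at 8168 bp. None had a partner in another list.

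Upstream of AMPK, *Stk11* was bound at its promoter in muscle only. The interval (chr10:80114967-80115569) had its centre at a median of 538 bp before the TSS and scored 57 in WT muscle and 42 in ERRα 3SA muscle, the top 11.3% and 23.7%, with ranks of 2872 and 11987. Among the members' shared muscle sites it was the only one with a larger top percentage in the mutant. This promoter interval held a core AAGGTCA 33 bp from its centre in WT muscle and 11 bp from it in ERRα 3SA muscle. A second peak at 5222 bp upstream was present in both mutant lists, with scores of 30 in muscle and 55 in liver. WT muscle alone had further peaks of score 36, at 2229 bp upstream and 2245 bp inside the gene. The upstream one held a full ERRE 207 bp from its centre, outside the central 300 bp. WT liver had no peak named for *Stk11*. In WT liver, though, 4 peaks within 20 kb of the reference start of *Stk11* were named for the neighbours *Sbno2* and *Cbarp*, with scores of 33 to 89, and in ERRα 3SA liver 5 were, with scores of 32 to 222. ERRα 3SA muscle had such neighbour peaks too, with scores of 30 to 36.

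*Cab39* was named in the mutant lists only, at different places. In ERRα 3SA muscle the peak lay 2428 bp upstream with a score of 36, the top 38.7%. In ERRα 3SA liver it lay in the promoter, 293 bp before the TSS, with a score of 49 and the top 44.8%, and an ERRE was found 174 bp from its centre, outside the central 300 bp. *Camkk2* had its recurrent site in intron 1 at a median of 10006 bp inside the gene (chr5:122768898-122770177), over the second ERRE printed above. Its score was 30 in WT muscle and 129 in ERRα 3SA muscle, with ranks of 16894 and 1773. In liver it was 160 in WT and 118 in ERRα 3SA, with ranks of 2091 and 5086. The order of the genotypes was thus opposite in the tissues. The other 5 *Camkk2* peaks were each in 1 list, with scores of 30 to 46.

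**Figure D4:**
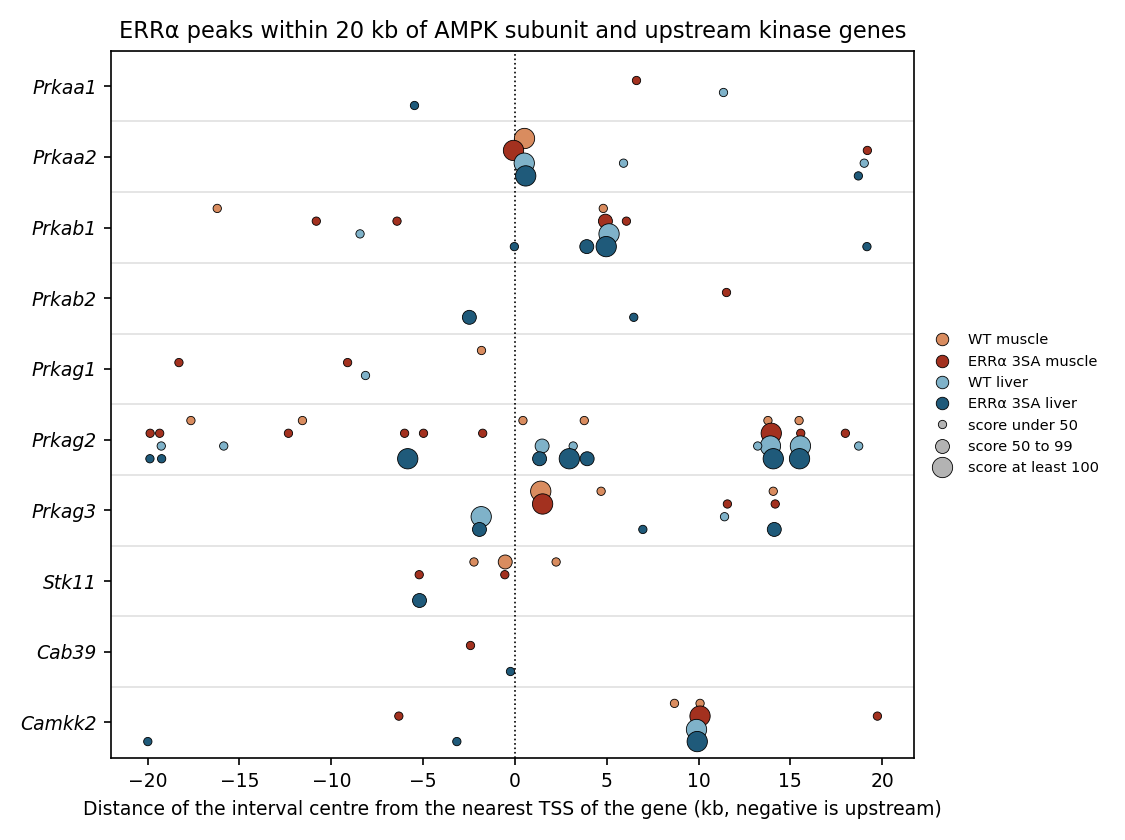
Member peaks within 20 kb by distance of the centre from the TSS in kb, negative upstream, with 1 row per gene, a colour per list and point size by score class (under 50, from 50, from 100). Points of all 4 colours stack at *Prkaa2* by the TSS, at *Prkab1* near 5 kb, at *Prkag2* near 14 and 16 kb and at *Camkk2* near 10 kb, while the large *Prkag3* points fall on opposite sides of the TSS in muscle and liver.

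Member peaks were mostly intronic. The annotation placed 77.8%, 64.3%, 83.3% and 73.1% of them in introns in WT muscle, ERRα 3SA muscle, WT liver and ERRα 3SA liver, against 45.7%, 47%, 48.3% and 48.2% of all peaks within 20 kb. All counted *Prkag2* peaks were intronic, and without that gene the member shares were 66.7%, 47.4%, 70% and 58.8%. A promoter annotation was given to 1, 2, 0 and 2 member peaks. Scores under 50 made up 83.3%, 82.1%, 61.1% and 46.2% of member peaks, against 81.8%, 82.3%, 57.7% and 52.6% of all, so the members' shares lay near those of their lists. The median interval width was 706, 496, 723 and 428 bp, against 435, 420, 411 and 413 bp over each list. The members nearest the 20 kb limit were a *Camkk2* peak at 19991 bp and a *Prkag2* peak at 19876 bp upstream, both inside it in ERRα 3SA liver, and a *Prkag2* peak at 21040 bp upstream in WT liver, outside it.

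Most member sites were found in a single list. When centres within 300 bp were joined, the 90 peaks formed 63 places, of which 46 were in 1 list, 11 in 2 lists, 2 in 3 lists and 4 in all 4. No share over all peaks stands beside this joining, so it does not set the members apart. In WT muscle 7 of 18 member peaks had a partner in ERRα 3SA muscle (38.9%, interval 20.3 to 61.4%), against 23.4% of all peaks within 20 kb, and in ERRα 3SA muscle 7 of 28 did (25%, interval 12.7 to 43.4%), against 12.9%. In WT liver 8 of 18 had a partner in the mutant (44.4%, interval 24.6 to 66.3%), against 49.2%, and in ERRα 3SA liver 8 of 26 did (30.8%, interval 16.5 to 50%), against 34.2%. All 4 intervals included the share over all peaks of the list, in ERRα 3SA muscle only narrowly (12.7% at the lower end against 12.9%). The intervals treat peaks of the same gene as independent. They therefore do not decide whether member sites were shared between genotypes more often than other peaks. Across tissues, 4 of 18 in WT muscle (22.2%, against 14.9%), 9 of 28 in ERRα 3SA muscle (32.1%, against 15.4%), 4 of 18 in WT liver (22.2%, against 17.3%) and 9 of 26 in ERRα 3SA liver (34.6%, against 22.5%) had a partner of the same genotype. The interval for ERRα 3SA muscle, 17.9 to 50.7%, lay above the share of all its peaks, and those of the other 3 lists included it. That difference rests on *Prkag2*, which held 5 of the 9 shared peaks, and the other members had 4 of 19 (21.1%).

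Ranks were compared where both genotypes shared a member site. In muscle 4 of the 7 shared sites had a better rank number in ERRα 3SA, against 37.6% of all shared peaks within 20 kb, and 6 had a smaller top percentage, against 71.4%. In liver 3 of the 8 shared sites had a better rank number in ERRα 3SA, against 46.2%, and the same number had a smaller top percentage, against 64.5%. A top percentage gets smaller in a longer list when the rank number stays the same, and the mutant lists are longer. The 4 muscle sites that ranked better were those at *Prkab1*, at *Camkk2* and at *Prkag2* introns 1 and 3, the member sites present in all 4 lists. Of these 4, the *Prkag2* intron 1 site was the only one that also ranked better in the mutant in liver. The *Prkag2* site at 36653 bp, beyond the limit, ranked better in the mutant in both tissues.

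**Figure D5:**
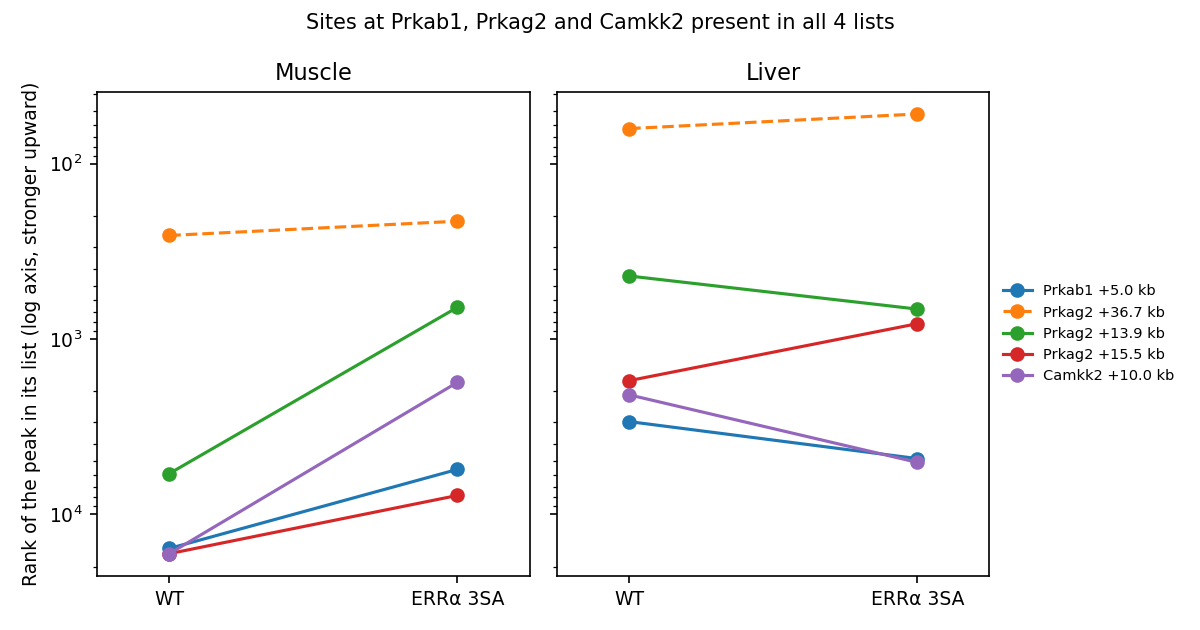
Ranks of 5 sites at *Prkab1*, *Prkag2* and *Camkk2* found in all 4 lists, in WT and ERRα 3SA, for muscle and liver; the axis is log with strong peaks at the top, solid lines are sites within 20 kb and the dashed line a site beyond. Every line climbs from WT to ERRα 3SA in muscle, for example from rank 16894 to 1773 at *Camkk2*, while in liver 2 climb and 3 fall. Shared muscle sites absent from a liver list are not drawn. Those at *Prkag3* and *Stk11* ranked lower in ERRα 3SA muscle, for example from 951 to 1152 at *Prkag3* exon 4 and from 2872 to 11987 at *Stk11*.

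Full ERREs were found in few member peaks and cores in more. TCAAGGTCA, read on either strand in the central 300 bp, was present in 2 member peaks of each list, namely those at *Prkag2* intron 1 and *Camkk2* intron 1. That is 11.1% in WT muscle, against 4.45% of all peaks within 20 kb, 7.14% in ERRα 3SA muscle, against 4.86%, 11.1% in WT liver, against 15.2%, and 7.69% in ERRα 3SA liver, against 14.9%. The core AAGGTCA, which is part of the full element, was searched in the same way and found in 6, 6, 8 and 9 member peaks, or 33.3%, 21.4%, 44.4% and 34.6%, against 13.8%, 15.2%, 35.8% and 35.5% of all peaks. The member interval for the core in WT muscle, 16.3 to 56.3%, lay above the share of all its peaks, and the other 3 included it. The core was chosen after seeing the data, so its shares are description only. For the full element the member interval included the share of all peaks in each list, being 3.1 to 32.8% in WT muscle. Of 32851 RefSeq promoters, each a window of 300 bases around a start, 0.423% hold the full element and 4.72% the core. Among the 12 promoters of the 10 members, none holds the full element and 1, at *Prkag2*, holds the core.

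The wider AMPK pathway was counted from a list of 36 other genes, with upstream partners, regulators, AMPK-related kinases that LKB1 activates, and substrates. Of these, 17, 25, 17 and 20 had a peak within 20 kb in WT muscle, ERRα 3SA muscle, WT liver and ERRα 3SA liver, or 47.2%, 69.4%, 47.2% and 55.6%, against 34.5%, 47.9%, 29.9% and 37.7% of protein-coding genes. With a score of at least 100 there were 3, 5, 4 and 6 of 36, against 2.87%, 5.49%, 8.02% and 11.9% of protein-coding genes. *Acacb*, for the acetyl-CoA carboxylase of the mitochondrial outer membrane that AMPK inhibits, ranked first of the 36 in each list, at the top 0.724%, 0.284%, 0.44% and 0.362%. Next were the AMPK-related kinase *Brsk1*, at the top 2.36%, 0.867%, 3.29% and 1.83%, the gluconeogenic coactivator *Crtc2* in muscle, at 3.69% and 1.31%, and the mitochondrial fission factor *Mff* in liver, at 2.58% and 2.96%. No peak within 20 kb in any list was named for *Acaca*, the cytosolic acetyl-CoA carboxylase, nor for *Cab39l*, *Fnip2*, *Strada* or *Stradb*. Beyond 20 kb, *Acaca* had 2 peaks in each liver list and *Fnip2* had 3 in each muscle list. *Cab39l*, *Strada* and *Stradb*, which encode partners of LKB1, had no named peak at any distance.

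Genes with a similar profile of best ranks were sought for the 5 members with peaks in all 4 lists, among the 3074 genes with peaks in all lists, by the mean absolute difference of log10 top percentages over the 4 lists. For *Prkaa2* the closest were *St6galnac4* (0.04), *Ubac1* (0.056) and *Nfyb* (0.062), and 8 genes lay within 0.1. For *Prkab1* they were *Mir7048* (0.031), *Tpd52* (0.031) and *A330074K22Rik* (0.034), with 46 genes within 0.1. *Camkk2* was closest to *Dym* (0.074), *Chpt1* (0.084) and *Cox6b1* (0.093). *Prkag3* was closest to *Sod2* (0.098), *1700064J06Rik* (0.11) and *Npc1* (0.12). *Prkag2* had no gene within 0.1, and its nearest were *Rax* (0.12), *Myo18a* (0.13) and *Mir7034* (0.14). Likeness here rests on 4 values per gene.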

How the data were processed

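Per the labels and the methods, the authors trimmed paired-end reads, aligned them to mm10, kept unique alignments without PCR duplicates, called peaks against input DNA and annotated them; the submitters' processing notes name Trimmomatic 0.36, BWA 0.7.12, Picard 2.0.1, MACS2 2.1.1.20160309 and HOMER 4.9.1. The deposited lists give a score per peak, whose scale is not stated, and GC and CpG contents as a fraction of the interval; GC is printed here in percent. Each list was called on 1 pooled library. The input libraries and RNA-seq were not analysed here, and a further peak site beyond 20 kb is not reported here.

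The members and gene lists were chosen with earlier results of these data known. Gene names and TSS distances are those of the lists. Peaks were shared when centres lay within 300 bp over the whole lists. Centres are midpoints of the deposited intervals, which for wide intervals may lie away from the summit. The paper describes peaks of a fixed width around the summit, but member intervals ranged from 252 to 1926 bp. GC recomputed from RefSeq GRCm38.p6 equalled the listed value, within a tolerance of 2e-06, for all but 1 to 3 peaks of each list. All 10 members were named, with the 3 top-ranked pathway genes of each list, those in no list, and the 3 nearest genes by rank profile. Wilson intervals at 95% cover counting error only. Python 3.11.15, pandas 2.3.3, numpy 2.4.6 and pysam 0.24.0 were used, and the scripts were tested on simulated data. Alternatives were distance limits of 5 and 50 kb or none, scores of at least 50 and 100, centres within 100 and 1000 bp, lists of equal length, other tie ranks, reference starts and other motifs. The core motif, the spacing of the duplicated core, the tie settings for lists of equal length and the shares without Prkag2 were added after seeing the data.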

Additional observations from a re-analysis of the deposited data

Results flagged for a closer look

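For 3 members the number of peaks within 20 kb differed between genotypes in opposite directions in the tissues. With 1 library per group the difference was not tested. For *Prkaa2* the ERRα 3SA list minus the WT list gave 1 peak in muscle and -1 in liver, and the peaks behind both differences scored 33 to 38. For *Prkag1* it also gave 1 in muscle and -1 in liver, from peaks of score 30 and 38 that no other list shared. For *Stk11* it gave -1 in muscle and 1 in liver, where the mutant peak scored 55 and WT had none named for the gene. In muscle the *Stk11* peaks without a partner in the other genotype scored 36 in WT and 30 in ERRα 3SA.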

How the results depend on the processing

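Values are given in the order WT muscle, ERRα 3SA muscle, WT liver and ERRα 3SA liver where 4 are listed. Of 136 counts recomputed, 82 stayed within 1.5 times the reported value and 54 moved beyond it. A 5 kb limit left 10, 7, 4 and 11 member peaks. Members with a peak were then 6 in WT muscle, 6 in ERRα 3SA muscle and 3 in WT liver. In muscle the order of the genotypes was thus reversed for member peaks, and the member counts were equal. That limit left 3 members in both liver lists, and 11, 12 and 8 pathway genes in the first 3 lists. With no limit, WT muscle had 28 member peaks, and lists of equal length left 15 in ERRα 3SA muscle when tied peaks were taken in list order, 14 with the tied peaks at the limit dropped and 19 with them kept, the last 2 settings chosen after seeing the data. A score of at least 50 left 3, 5, 7 and 14 member peaks, 3 and 5 members in the muscle lists, 2 in both muscle lists, and 7, 7 and 9 pathway genes in the first 3 lists. A score of at least 100 left 2, 4, 6 and 7 member peaks, 2 and 4 members in muscle and 4 in ERRα 3SA liver, 2 in both muscle lists, and 3, 5, 4 and 6 pathway genes. Centres within 100 bp gave 3, 3, 4 and 4 peaks with a partner in the other genotype and 2, 5, 2 and 5 with a partner in the other tissue. Requiring that score of 50 from both partners, 1 muscle peak of each genotype had a genotype partner, and 1, 3, 1 and 3 peaks a tissue partner. TNAAGGTCA gave 4 member peaks in ERRα 3SA liver, and AAGGTCA, chosen after seeing the data, gave 6, 6, 8 and 9. Fewer peaks enter under stricter limits by construction. Of the best top percentages of single members, 17 of 88 moved, more for *Prkag2* than for any other member. Its value at a 50 kb limit was 1.01%, 0.421%, 0.289% and 0.179%. No paired analysis was possible because each genotype and tissue has 1 library. Depth, and so the power to call weak peaks, is unknown here.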
